A study of Mus musculus with 2 samples.

Results

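The Ms4a gene cluster was examined in cultured mouse bone marrow progenitors that had been transformed with Hoxa9 and Meis1 and from which Cebpa could be removed. The 9 genes, Ms4a1, Ms4a2, Ms4a3, Ms4a4b, Ms4a4c, Ms4a6b, Ms4a6c, Ms4a6d and Ms4a7, were taken by symbol from the gene table, and each matched 1 of its 23309 rows. The 4OHT cells had been kept in 5 nM 4-hydroxytamoxifen (4OHT) for 72 h, and the EtOH cells in ethanol, its vehicle, for 72 h. All cells of both groups were Cebpaf/f;CreER, that is, they carried loxP-flanked Cebpa and a tamoxifen-activated Cre recombinase. They came from lineage-depleted marrow, carried the MIGR1-HA-Hoxa9 and MIGR1-Flag-Meis1 retroviruses and grew in interleukin-3. The sources used here do not give the promoter that drives CreER, the number of mice or their age. Each condition had 1 deposited sample that joined 2 replicates, so there is 1 value per gene and condition and no spread between replicates.

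MS4A proteins cross the membrane 4 times and form a family whose best known member, CD20, is the target of therapeutic antibodies against B cells. Different members are used by different blood lineages: Ms4a1 (CD20) by B cells, Ms4a2 by mast cells and basophils, Ms4a3 by granulocyte and monocyte progenitors, and the Ms4a4, Ms4a6 and Ms4a7 genes by monocytes, macrophages and T cells. C/EBPα, the product of Cebpa, is a transcription factor that granulocyte and monocyte progenitors need to mature.

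Levels are in FPKM, fragment counts adjusted for how long a transcript is and how deeply a library was read, a scale per length on which genes can be set side by side. A gene was called when the authors' deposited table gave it a test (status OK) and a q, the p adjusted for multiple tests, under 0.05. Rose and fell are written only of called genes. Over all 11953 tested rows, 5.91% were called, 3.11% lower and 2.80% higher in 4OHT cells. FPKM summed to 673516 in 4OHT cells and 684536 in EtOH cells, and the table gives no read counts, so the depth behind a value is unknown. Cebpa, the deleted gene, stood at 42.8 FPKM in 4OHT cells and 109 FPKM in EtOH cells, so transcripts of it remained at 39.2% of the EtOH level. The progenitor receptor gene Kit was present in both conditions, with 32.8 FPKM in 4OHT cells and 20.1 FPKM in EtOH cells. Of the lymphocyte genes looked at, 3 of 14 B cell genes and 3 of 15 T and NK cell genes were listed at 0 in both. Among these were Pax5, Cd3e, Cd3g and Cd4. Others were above 0, such as the T cell kinase gene Lck, with 3.73 FPKM in 4OHT cells and 3.61 FPKM in EtOH cells. The RNA is from bulk cultures, in which fewer cells of a type and less RNA per cell cannot be told apart.

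Of the 9 Ms4a genes, 1 fell and none rose after 4OHT. Ms4a3 had 461 FPKM in 4OHT cells and 658 FPKM in EtOH cells, and it was the gene that fell. It was also the only 1 of the 9 genes with a lower value in 4OHT cells, since 7 had a higher value that was not called and Ms4a1 was listed at 0. The authors tested 5 of the genes, and the 4 tested genes other than Ms4a3 were not called. As 1 of 5 tested genes, the called share rests on a single gene and says little beside the 5.91% over all tested rows. At a q under 0.01, which 3.84% of tested rows passed, no Ms4a gene was called, and at a q under 0.1, which 7.08% passed, Ms4a6c was called higher as well. With p adjusted over tested rows of at least 1 FPKM alone, where 5.75% were called, Ms4a3 was again the 1 gene called. Of the 9 genes, 4 reached 1 FPKM in the higher condition and 5 stayed below it in both.

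**Figure D1:**
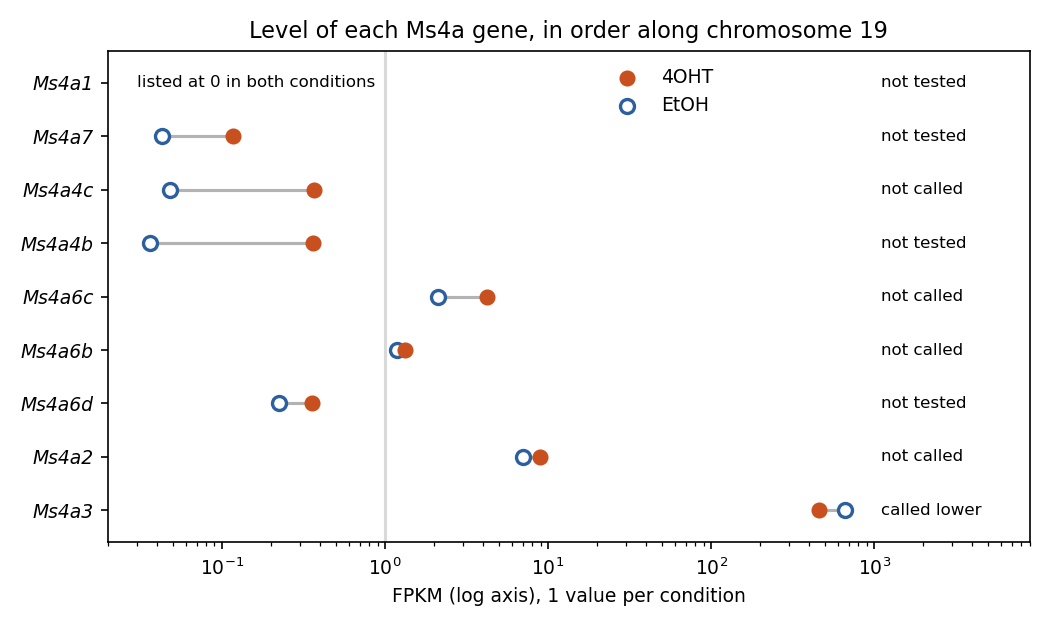
Level of each Ms4a gene in FPKM on a log axis, in order along the chromosome, with filled circles for 4OHT cells and open circles for EtOH cells (1 value per condition, no error bars). Ms4a3, called lower, lies at 461 FPKM in 4OHT cells and 658 FPKM in EtOH cells, far to the right of the next highest gene, Ms4a2, at 8.94 FPKM in 4OHT cells and 7.07 FPKM in EtOH cells, and Ms4a1 has no point because it was listed at 0.

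The cluster lies on chromosome 19 of mm9, the genome build of the deposited loci, and the 9 loci span 444 kb from 11271307 to 11715324. In order they are Ms4a1, Ms4a7, Ms4a4c, Ms4a4b, Ms4a6c, Ms4a6b, Ms4a6d, Ms4a2 and Ms4a3. The last pair, Ms4a2 and Ms4a3, are separated by 5.78 kb.

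Promoter sequences of the genes with the highest level, and of both pairs of closest relatives, are shown here so that the results below can be read against them. They come from RefSeq on GRCm38.p6, a later build than that of the loci, and run from 250 bases before to 50 bases after the annotated start. RefSeq promoters were matched for 7 of the 9 genes, with 2 for Ms4a7, and Ms4a1 and Ms4a6d were not matched. In the first pair, Ms4a3 at chr19:11640802-11641101 and Ms4a2 at chr19:11623670-11623969, both on the minus strand and printed 5′ to 3′ along the gene, capitals mark TTNNGNAA on either strand. This motif is a loose form of the site that C/EBP proteins bind.
Ms4a3: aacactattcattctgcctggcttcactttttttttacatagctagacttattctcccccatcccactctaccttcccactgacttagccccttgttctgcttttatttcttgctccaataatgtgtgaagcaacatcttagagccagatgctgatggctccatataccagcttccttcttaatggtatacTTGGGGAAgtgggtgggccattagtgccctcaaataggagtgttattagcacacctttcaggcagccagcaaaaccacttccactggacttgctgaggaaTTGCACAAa
Ms4a2: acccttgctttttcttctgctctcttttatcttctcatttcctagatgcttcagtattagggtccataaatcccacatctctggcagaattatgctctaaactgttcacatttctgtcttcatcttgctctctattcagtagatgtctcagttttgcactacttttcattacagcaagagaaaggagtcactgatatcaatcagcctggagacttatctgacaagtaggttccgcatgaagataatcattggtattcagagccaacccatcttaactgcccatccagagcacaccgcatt
The Ms4a3 promoter held the motif at 2 places. The first, TTGGGGAA, starts 59 bases before the annotated start. The second lies at base 42 of the transcript and also fits the stricter TTGCNNAA, as TTGCACAA on the coding strand. The Ms4a2 window held neither motif. Such matches are frequent: TTNNGNAA was found on either strand in 40.7% of 32851 promoters of the same length, and in 7 of the 8 promoters of the Ms4a genes. TTGCNNAA was found in 10.8% of all promoters and in 1 of those 8, that of Ms4a3. The match of letters is a description and does not show binding.

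The Ms4a4c and Ms4a4b promoters, and those of Ms4a6c and Ms4a6b, are shown as pairs of close relatives, with the longest run that both members of a pair share in capitals. All 4 lie on the plus strand, Ms4a4c at chr19:11407411-11407710, Ms4a4b at chr19:11443308-11443607, Ms4a6c at chr19:11469118-11469417 and Ms4a6b at chr19:11518309-11518608.
Ms4a4c: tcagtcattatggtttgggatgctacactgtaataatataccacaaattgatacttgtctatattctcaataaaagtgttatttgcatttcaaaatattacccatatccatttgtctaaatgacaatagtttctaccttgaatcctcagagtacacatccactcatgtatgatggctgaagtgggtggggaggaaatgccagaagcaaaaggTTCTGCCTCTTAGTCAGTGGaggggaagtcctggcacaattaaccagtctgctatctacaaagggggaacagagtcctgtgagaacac
Ms4a4b: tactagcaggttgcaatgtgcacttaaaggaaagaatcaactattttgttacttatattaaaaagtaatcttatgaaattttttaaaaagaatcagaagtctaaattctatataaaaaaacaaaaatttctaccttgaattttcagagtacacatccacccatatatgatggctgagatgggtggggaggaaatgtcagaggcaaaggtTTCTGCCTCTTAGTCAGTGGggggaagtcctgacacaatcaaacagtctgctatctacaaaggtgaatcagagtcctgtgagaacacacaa
Ms4a6c: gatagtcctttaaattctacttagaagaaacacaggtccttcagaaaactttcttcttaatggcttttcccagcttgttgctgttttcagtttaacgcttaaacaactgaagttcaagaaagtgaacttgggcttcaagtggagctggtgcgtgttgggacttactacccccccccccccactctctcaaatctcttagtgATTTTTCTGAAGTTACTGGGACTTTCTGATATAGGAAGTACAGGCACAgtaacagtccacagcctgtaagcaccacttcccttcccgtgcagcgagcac
Ms4a6b: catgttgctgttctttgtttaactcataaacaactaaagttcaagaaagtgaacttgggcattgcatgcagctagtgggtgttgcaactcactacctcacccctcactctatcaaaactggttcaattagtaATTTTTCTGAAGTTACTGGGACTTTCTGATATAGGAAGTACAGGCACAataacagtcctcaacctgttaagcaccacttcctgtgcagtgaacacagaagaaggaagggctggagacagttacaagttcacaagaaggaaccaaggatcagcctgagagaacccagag
Among the 21 pairs of Ms4a promoters compared by global alignment, these were the closest. Each gene entered with a single promoter, so a further Ms4a7 promoter was left out. Ms4a4b and Ms4a4c shared 228 identical bases of 282 aligned, and Ms4a6b and Ms4a6c shared 189 of 220. The other 19 pairs had 142 to 173, and their longest unbroken shared run was 6 to 12 bases. The shared run was 48 bases in the Ms4a6 pair and 20 bases in the Ms4a4 pair. In the Ms4a6 pair the run begins 49 bases before the start of Ms4a6c and 118 bases before that of Ms4a6b. It holds a TTNNGNAA match, TTCAGAAA on the opposite strand, which lies 46 bases before the start in Ms4a6c and 115 bases before it in Ms4a6b.

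Ms4a3 encodes a protein also called HTm4 that marks granulocyte and monocyte progenitors, and it was by far the most abundant Ms4a transcript. Ms4a3 fell to 70.1% of its EtOH level, a log2 ratio of -0.51 (q = 0.0316, the authors' deposited table). It ranked 214 of all 23309 rows by level in 4OHT cells and 161 in EtOH cells. In 4OHT cells it made up 96.7% of the summed FPKM of the 9 genes, against 98.4% in EtOH cells. The sum over all 9 genes therefore followed Ms4a3, at 477 FPKM in 4OHT cells and 669 FPKM in EtOH cells. Without Ms4a3 the sum was 15.7 FPKM in 4OHT cells and 10.7 FPKM in EtOH cells, 1.47-fold higher after 4OHT.

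The fall of Ms4a3 was near the smallest change that was called at such levels. Of 213 other tested rows within 2-fold of its level, 13 were called, and the smallest of those changes was 1.40-fold, beside 1.43-fold for Ms4a3. A change at least as large was seen in 23 of the 213 rows, and 12 of the 23 were called. In the authors' deposited table a first column marks Ms4a3 as significant and a further one marks it as not differentially expressed. The further column gives that mark to 78 rows with q under 0.05, all changed by less than 1.50-fold. No spread between replicates is available against which to weigh the change.

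**Figure D2:**
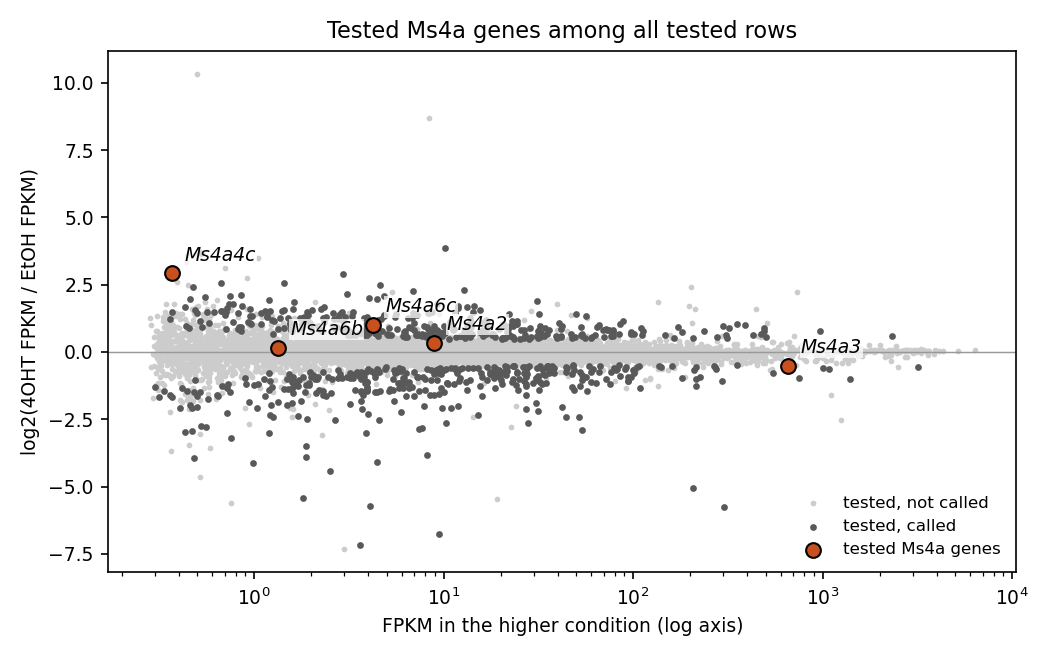
Log2 ratio of 4OHT to EtOH FPKM against FPKM in the higher condition (log axis) for tested rows above 0 in both conditions, with called rows in dark grey and the 5 tested Ms4a genes in orange (1 value per condition). Ms4a3 lies below the zero line at -0.51 at the high end of the level axis, and Ms4a4c, Ms4a6c, Ms4a2 and Ms4a6b lie above it at 2.93, 1.00, 0.34 and 0.17 without being called.

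Ms4a2 encodes the beta chain of the high-affinity IgE receptor, which amplifies signals from the receptor in mast cells and basophils. It had 8.94 FPKM in 4OHT cells and 7.07 FPKM in EtOH cells, 1.27-fold higher after 4OHT, and was not called, with q = 0.558 in the authors' deposited table. Ms4a3 next to it thus had 51.6 times the level of Ms4a2 in 4OHT cells and 93.1 times in EtOH cells. Whether these neighbours differ from each other in their response was not tested, because there is 1 value per condition. Of 3717 other tested rows within 2-fold of its level, the smallest change called was 1.41-fold, more than the 1.27-fold of Ms4a2.

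The receptor's other chains gave a mixed picture of level. Fcer1g, the gamma chain, which several Fc receptors share, had 654 FPKM in 4OHT cells and 516 FPKM in EtOH cells and was not called. Fcer1a, the alpha chain that binds IgE and is found in mast cells and basophils, had 0.254 FPKM in 4OHT cells and 0.252 FPKM in EtOH cells and was not tested. Of the 3 chains, the beta and gamma chains were thus above 1 FPKM and the alpha chain was below it in both conditions. Over the 15 genes of the receptor's other chains and proximal signalling, 14 were tested, and 3 rose, none fell and 11 were not called. Their median log2 ratio, with 1 FPKM added to each value here and in the lists below, was 0.19, beside 0.00 over all tested rows. Fyn, a Src-family kinase, rose to 17.1 FPKM in 4OHT cells, against 9.26 FPKM in EtOH cells. Lat2, an adaptor of mast cells and B cells, rose to 147 FPKM, against 96.3 FPKM in EtOH cells. The adaptor Lat was the other riser, at 3.20 times its EtOH level. Grb2, an adaptor, had 122 FPKM in 4OHT cells and 98.4 FPKM in EtOH cells. Btk, a kinase, had 102 FPKM in 4OHT cells and 89.6 FPKM in EtOH cells, and neither was called. Of the 14 tested genes, 12 had the higher value in 4OHT cells, and Lyn and Lcp2 had the lower. Lyn had 27.2 FPKM in 4OHT cells and 33.1 FPKM in EtOH cells. Lcp2 had 34.4 FPKM in 4OHT cells and 45.7 FPKM in EtOH cells, and neither Lyn nor Lcp2 was called.

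Mast cell and basophil markers, beside which Ms4a2 can be read, were present in part. Of 17 listed genes, 13 were tested, and 5 rose, none fell and 8 were not called, with a median log2 ratio of 0.35. The risers were Cpa3, Kit, Gata2, Il1rl1 and Slc18a2, at 1.63 to 1.96 times their EtOH levels, more than the 1.27 times of Ms4a2. Of these, Kit is also the progenitor receptor gene given above, so the risers are not all particular to mast cells and basophils. Whether the other risers, Gata2 among them, are particular to these cells was not tested. Hdc, which makes histamine, had 37.4 FPKM in 4OHT cells and 30.7 FPKM in EtOH cells, and the basophil protease gene Prss34 had 16.8 FPKM in 4OHT cells and 20.5 FPKM in EtOH cells, and neither was called. Mcpt8, another basophil protease gene, had 61.0 FPKM in 4OHT cells and 61.2 FPKM in EtOH cells and was not called. Mcpt1, Mcpt2 and Mcpt4, proteases of mature mast cells, were listed at 0 in both. Cma1 and Tpsb2 of the same list were above 0 and were not called. Cma1 had 3.06 FPKM in 4OHT cells and 2.16 FPKM in EtOH cells, and Tpsb2 had 0.654 FPKM in 4OHT cells and 0.839 FPKM in EtOH cells. The list summed to 1300 FPKM in 4OHT cells and 801 FPKM in EtOH cells. Most of that sum was Cpa3, with 975 FPKM in 4OHT cells and 562 FPKM in EtOH cells. The part of these markers in the value of Ms4a2 was not tested.

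Ms4a3 was set beside a list of genes of primary granules and of granulocyte and monocyte progenitors, and likeness to them was not measured. Of 12 such genes, all of them tested, 4 fell, 1 rose and 7 were not called, with a median log2 ratio of -0.19. Of the 12, 4 had the higher value in 4OHT cells. Among these was Mpo, with 603 FPKM in 4OHT cells and 496 FPKM in EtOH cells, which was not called. Elane, neutrophil elastase, fell to 51.2% of its EtOH level, Prtn3, proteinase 3, to 65.0%, Ctsg, cathepsin G, to 67.6%, and Gstm1, a glutathione transferase, to 68.1%. The 70.1% of Ms4a3 was thus the smallest change beside these 4 falls, and the differences between genes were not tested. Serpinb1a, an inhibitor of the granule proteases, rose to 1.45 times its EtOH level. Srgn, the granule proteoglycan serglycin, had 2412 FPKM in 4OHT cells and 2733 FPKM in EtOH cells and was not called. Plac8 had 1856 FPKM in 4OHT cells and 2137 FPKM in EtOH cells, Cst7, a cystatin that inhibits cathepsins, had 650.3 FPKM in 4OHT cells and 513 FPKM in EtOH cells, and neither was called. The list as a whole summed to 9400 FPKM in 4OHT cells and 11491 FPKM in EtOH cells.

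The human MS4A3 protein is known to bind the phosphatase KAP, the product of Cdkn3, which acts on the kinase CDK2 in the cell cycle. None of the 9 tested genes of that group rose or fell, and their median log2 ratio was -0.10. Cdkn3 had 18.9 FPKM in 4OHT cells and 22.4 FPKM in EtOH cells (q = 0.951, the authors' deposited table). Cdk2 had 65.0 FPKM in 4OHT cells and 61.5 FPKM in EtOH cells. The most abundant others were Ccnb1, a mitotic cyclin, with 93.0 FPKM in 4OHT cells and 99.8 FPKM in EtOH cells, the kinase gene Cdk1, with 72.1 FPKM in 4OHT cells and 82.3 FPKM in EtOH cells, and Ccna2, a cyclin of S and G2 phase, with 77.3 FPKM in 4OHT cells and 80.2 FPKM in EtOH cells.

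Ms4a6c, a gene of monocytes and macrophages, had the largest difference in FPKM among the tested Ms4a genes that were not called. It had 4.22 FPKM in 4OHT cells and 2.10 FPKM in EtOH cells, 2.00-fold higher after 4OHT. Its p was 0.00355 and its q 0.0577 in the authors' deposited table, just outside the threshold. Of 2586 other tested rows within 2-fold of its level, 113 changed at least as much, and 99 of the 113 were called. Its close relative Ms4a6b, which is known in T cells, had 1.33 FPKM in 4OHT cells and 1.19 FPKM in EtOH cells, 1.12-fold higher (q = 1.00, the authors' deposited table). The pair with the longest shared promoter run therefore had ratios of 2.00 and 1.12, and the difference between them was not tested. Ms4a6d, known from macrophages, had 0.359 FPKM in 4OHT cells and 0.224 FPKM in EtOH cells and was not tested by the authors.

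The Ms4a4 genes and Ms4a7 were below 1 FPKM in both conditions. Ms4a4b, a gene of T and NK cells, had 0.364 FPKM in 4OHT cells and 0.0364 FPKM in EtOH cells and was not tested by the authors. Ms4a4c had 0.368 FPKM in 4OHT cells and 0.0482 FPKM in EtOH cells, with p = 0.0268 and q = 0.266 in the authors' deposited table, and was not called. The values of both relatives were thus close to each other in each condition and 9.99 and 7.63 times as high in 4OHT cells, at levels where most changes of that size were not called. Of 753 other tested rows within 2-fold of the level of Ms4a4c, 14 changed at least as much, and 4 of the 14 were called. Ms4a7, a gene of macrophages, had 0.117 FPKM in 4OHT cells and 0.0429 FPKM in EtOH cells and was not tested. Ms4a1, the CD20 gene, was listed at 0 in both conditions. Its deposited locus, from 11271307 to 11374374, is shared with Ms4a5 and is wider than the gene.

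All 4 Ms4a genes that were below 1 FPKM and above 0 in both conditions had the higher value in 4OHT cells. Over the 4205 rows of the table in that range, 49.5% had the higher value in 4OHT cells, and over all tested rows 50.3%. The 4 genes are neighbours with related sequences and are not independent, so this is a description with no test. The 6 Ms4a4, Ms4a6 and Ms4a7 genes summed to 6.76 FPKM in 4OHT cells and 3.64 FPKM in EtOH cells, a ratio of 1.85. Ms4a6c made up most of that difference. The median log2 ratio of the 9 genes, tested or not, was 0.15 with 1 FPKM added. Over the 5 tested Ms4a genes alone it was 0.30, beside 0.00 over all tested rows.

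Reads that match several of these genes could have been assigned to either, and the sources used here do not say how this was done. In the GENCODE M21 transcripts, stretches of 50 bases that also occur in another gene made up 10.5% of those of Ms4a6c. Ms4a6b was the gene that most often shared them, for 5.85% of the stretches of Ms4a6c. Such stretches made up 3.57% of those of Ms4a6b. They made up 8.19% of those of Ms4a4c and 2.40% of those of Ms4a4b. In Ms4a3 no such stretch was shared with another annotated gene, and in Ms4a2 2.10% were, all of them with Ms4a4b. The level of Ms4a4b was far below that of Ms4a2, and whether reads of Ms4a2 entered its value was not tested. The values of Ms4a2 and of the Ms4a4 and Ms4a6 genes are therefore uncertain, by an amount that was not measured. The read length is likewise not stated there.

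Monocyte and macrophage markers, listed beside the Ms4a6 genes and Ms4a7, mostly fell where they were called. Of 21 listed genes, 18 were tested, and 9 fell, 1 rose and 8 were not called, with a median log2 ratio of -0.33. The 9 that fell were Ly6c2, F13a1, Cd14, Cd68, Itgam, Lgals3, Irf8, Maf and Clec7a, the gene of the fungal receptor Dectin-1, at 13.4% to 67.7% of their EtOH levels. Clec7a fell to 1.73 FPKM in 4OHT cells, against 3.86 FPKM in EtOH cells, a range of level near that of Ms4a6c. Maf fell from a low base, to 0.117 FPKM in 4OHT cells, against 0.359 FPKM in EtOH cells. Mrc1, the macrophage mannose receptor, rose to 2.70 times its EtOH level, also from a low base. The macrophage adhesion receptor gene Emr1 had 129 FPKM in 4OHT cells and 147 FPKM in EtOH cells, the chemokine receptor gene Ccr2 had 87.8 FPKM in 4OHT cells and 114 FPKM in EtOH cells, and neither was called. Csf1r, the macrophage growth factor receptor, was not called, at 2.55 FPKM in 4OHT cells and 2.84 FPKM in EtOH cells. The list summed to 634 FPKM in 4OHT cells and 1031 FPKM in EtOH cells, and the difference between Ms4a6c and these markers was not tested.

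B cell markers, listed beside Ms4a1, were low. Of 14 listed genes, 13 stayed below 1 FPKM in both conditions and 3 were listed at 0. Of 4 tested, 1 rose, Ebf1, an early B cell transcription factor, at 2.04 times its EtOH level. Cd79b, a chain of the B cell receptor, had 0.567 FPKM in 4OHT cells and 0.449 FPKM in EtOH cells, and was not called. Vpreb1 had 0.550 FPKM in 4OHT cells and 0.215 FPKM in EtOH cells, and Igll1 0.522 FPKM in 4OHT cells and 0.277 FPKM in EtOH cells. Both encode the surrogate light chain of B cell precursors, and neither was called. The list summed to 3.69 FPKM in 4OHT cells and 2.22 FPKM in EtOH cells.

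T and NK cell markers, listed beside Ms4a4b and Ms4a6b, held no called gene among 3 tested, and 13 of 15 stayed below 1 FPKM in both conditions. Tnfrsf18, the receptor GITR, which associates with MS4A4B in mouse T cells, had 10.2 FPKM in 4OHT cells and 7.76 FPKM in EtOH cells. Lck, a kinase of T cells, had 3.73 FPKM in 4OHT cells and 3.61 FPKM in EtOH cells, and Tnfrsf4, the receptor OX40, 0.844 FPKM in 4OHT cells and 0.695 FPKM in EtOH cells. Summed over the list there were 15.4 FPKM in 4OHT cells and 12.6 FPKM in EtOH cells, and the median log2 ratio of the tested genes was 0.12.

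**Figure D3:**
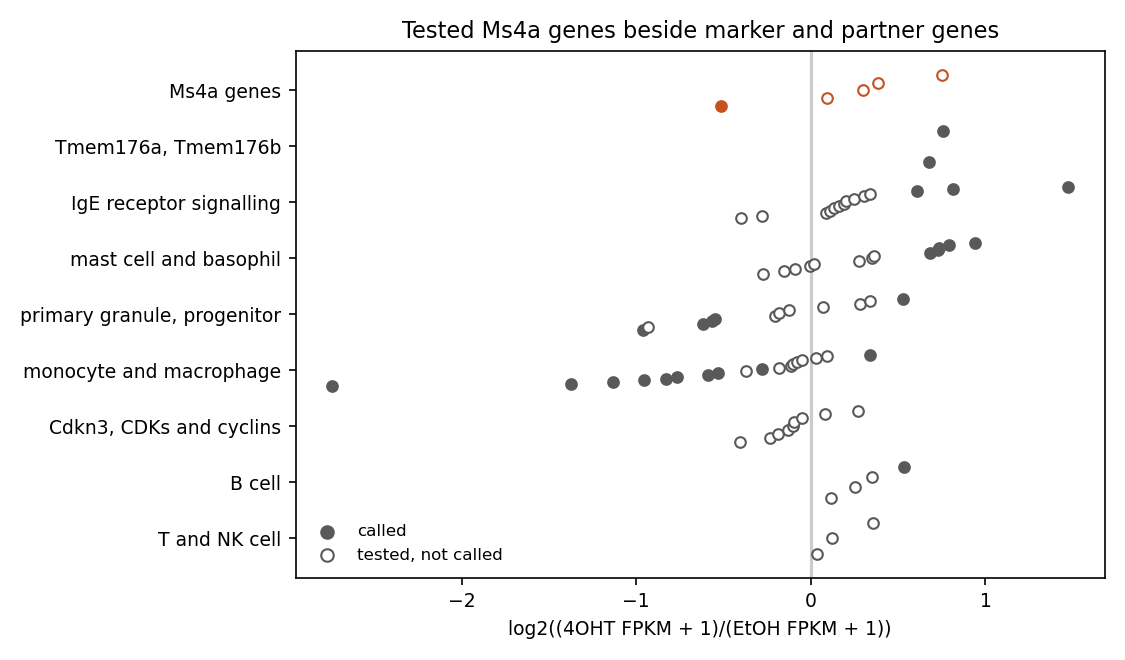
Log2 ratio of 4OHT to EtOH, with 1 FPKM added to each value, for every tested gene of the Ms4a cluster (orange) and of the marker and partner lists (grey), filled where called (1 value per condition). Ms4a3 at -0.51 lies on the side of most called granule and monocyte genes (Serpinb1a at 0.53 and Mrc1 at 0.34 are called on the other side). The 4 other tested Ms4a genes lie on the side of Tmem176a, Tmem176b and the called genes of the mast cell and basophil list, Kit included. That side is not particular to this list, since the called genes Fyn, Lat, Lat2 and Ebf1 of other lists lie there too. Of the 13 tested mast cell and basophil genes, 9 lie on that side and the rest on the other.

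Other Ms4a rows, most of them before the span of the 9 loci and Ms4a5 and Ms4a4d within it, were listed at 0 or were low. Of 13 further symbols looked for, 9 had a row, and 5 of these were listed at 0 in both conditions, namely Ms4a5, Ms4a10, Ms4a13, Ms4a15 and Ms4a18. Ms4a8a had 0.112 FPKM in 4OHT cells and 0.0206 FPKM in EtOH cells, and Ms4a4d had 0.0511 FPKM in 4OHT cells and 0.0394 FPKM in EtOH cells, and neither was tested. The related 4-span membrane protein genes Tmem176a and Tmem176b, which lie outside the cluster, both rose. Tmem176b rose to 237 FPKM in 4OHT cells, against 140 FPKM in EtOH cells, and Tmem176a rose to 101 FPKM in 4OHT cells, against 63.2 FPKM in EtOH cells. Their q was 0.00165 in the authors' deposited table.

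The genes around the cluster were examined to see how its values compare with those of its surroundings. Within 1 Mb of its ends there were 76 other rows, of which 27 were tested, and 2 rose and none fell, 7.41% of those tested. With 1 FPKM added to each value, the median log2 ratio of the 27 was 0.03, with a range from -0.28 to 0.79. On that scale Ms4a3, at -0.51, lay below all of them. Stx3, a syntaxin of vesicle fusion, rose to 16.2 FPKM in 4OHT cells, against 10.1 FPKM in EtOH cells, and begins 134 kb beyond the end of Ms4a3. Dtx4, a ubiquitin ligase, rose to 36.2 FPKM, against 20.6 FPKM in EtOH cells, and begins 826 kb beyond it. Plac1l, the nearest tested row, begins 6.45 kb beyond Ms4a3 and had the lowest ratio of the 27. It had 0.529 FPKM in 4OHT cells and 0.859 FPKM in EtOH cells, and was not called. Without the added FPKM its log2 ratio was -0.70, lower than the -0.51 of Ms4a3, at levels below 1 FPKM. Oosp1, an oocyte protein gene 26.6 kb beyond Ms4a3, had 4.21 FPKM in 4OHT cells and 3.88 FPKM in EtOH cells. Mrpl16, a mitochondrial ribosomal protein gene, had 49.0 FPKM in 4OHT cells and 52.6 FPKM in EtOH cells. AW112010, on the other side of the cluster, had 3.42 FPKM in 4OHT cells and 2.18 FPKM in EtOH cells, and Oosp1, Mrpl16 and AW112010 were not called.

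**Figure D4:**
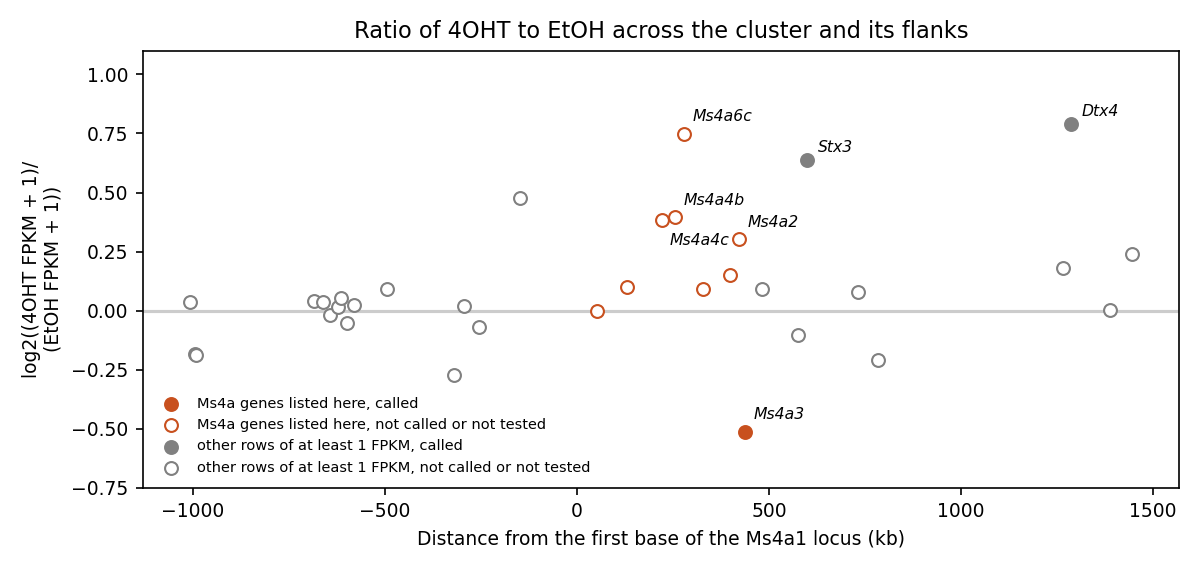
Log2 ratio of 4OHT to EtOH, with 1 FPKM added, against distance in kb from the first base of the Ms4a1 locus, for the Ms4a genes (orange) and the other rows of at least 1 FPKM within 1 Mb (grey), filled where called (1 value per condition). Ms4a3 at -0.51 is the lowest point shown, while its neighbour Ms4a2 is at 0.30 and the called genes Stx3 and Dtx4 are at 0.64 and 0.79. Plac1l, which stayed below 1 FPKM, is not shown.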

How the data were processed

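RNA sequencing compared 4OHT and EtOH cells, with 1 deposited sample each. Per the labels' protocols, RNA was column-purified with DNase and made into libraries with a TruSeq RNA kit, and the sources used here do not say whether strand was kept. Build mm9 and the tools Cuffdiff 2.0.2, Bowtie2 2.0.0.7 and CASAVA 1.8.2 appear, without roles, per the submitters' processing notes. Per the file headers, the authors deposited 1 FPKM value per gene and condition, with p-values and q-values for the comparison. The deposited q equals a Benjamini-Hochberg adjustment over rows with status OK, to within 5.28e-07, and which test gave the p-values is not stated.

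No test was run here, since a condition has 1 value. Log2 ratios used a pseudocount of 1 FPKM where stated, which damps low genes. Genes, lists and the rule for naming genes (all 9, Cebpa, called list members, then the 3 most abundant uncalled ones, and neighbours that were called or were the 4 nearest of at least 1 FPKM) were chosen with earlier results of these data known. Plac1l, Mpo, Cma1, Tpsb2, Lyn and Lcp2, named after their values were seen, were named besides. So were Fcer1a, Cdkn3, Cdk2 and genes listed at 0. Adjustment and motif search were tested on simulated data. Alternatives were other pseudocounts, thresholds, scalings, level floors and a stricter motif. Promoters were RefSeq's, aligned with Biopython 1.88, with Python 3.11.15, pandas 2.3.3 and matplotlib 3.10.9. 1 B cell marker of the list is not reported here.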

Additional observations from a re-analysis of the deposited data

How the results depend on the processing

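Scaling each condition by its sum of FPKM, by the median ratio of tested rows or by its upper quartile moved the log2 ratio of every Ms4a gene, their median and the summed level, with and without Ms4a3, by less than 0.1. The count of called genes was 1 also with p adjusted over tested rows of at least 1 FPKM alone and with lower genes left out. At a q under 0.01 in the authors' deposited table no Ms4a gene was called (0 higher, 0 lower), where 3.84% of tested rows were, since Ms4a3 has q = 0.0316. At a q under 0.1 there were 2, Ms4a3 lower and 1 higher, Ms4a6c, where 7.08% of tested rows were called. The median log2 ratio of the 9 genes was 0.15 with a pseudocount of 1 FPKM, 0.50 with 0.1 FPKM and 0.84 with none, the last over the 8 genes above 0, without Ms4a1. Of 44 single-gene values under these alternatives, 34 moved by less than 0.1 and 10, all with a smaller or no pseudocount, moved by more, with no change of sign. The stricter motif TTGCNNAA was found in 1 Ms4a promoter, against 7 with TTNNGNAA. No replicate could be left out, and no paired analysis was possible because each condition has 1 deposited value that joins 2 replicates. Loss of Cebpa cannot be told apart from other effects of 4OHT or Cre, which both changed with it.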
